A study of Mus musculus with 12 samples.

Results

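The genes of mitochondrial protein import and of the chaperones and proteases that receive imported proteins were followed in RNA from the outer kidney cortex of mice. They were chosen by name: every symbol that begins with Timm or Tomm and a number, plus Samm50, Mtx1, Mtx2, Pam16, Grpel1, Hspa9, Hspd1, Hspe1, Pmpca, Pmpcb, Lonp1 and Clpp, with pseudogenes left out. This gave 38 of the 55450 genes in the table. Tomm20l, with 2 counts over all 12 libraries, and Timm8a2, with 7, fell below the minimum of 15 counts, which left 36 members, and all 36 were among the 16094 genes with enough counts to be tested. One of them, Tomm6os, is an antisense RNA that overlaps Tomm6 and encodes no import protein; it is kept because the naming rule takes it.

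The 12 libraries came from 4 groups of 3 mice, all on the FVB/N background and all killed at 12 weeks of age. C16 Tg26 mice were hemizygous for the Tg26 transgene, a partial HIV-1 provirus, and received C16, an inhibitor of the double-stranded RNA-activated kinase PKR, intraperitoneally at 10 µg/kg in DMSO-PBS from week 6 to week 12, several times a week. Tg26 mice carried the same transgene, without C16. C16 WT mice were nontransgenic and received the same course of C16, and WT mice were nontransgenic and were labelled as controls. The labels do not state whether the mice without C16 were injected with vehicle. The transgene is expressed from the viral promoter, which is not specific to a kidney cell type, and a partial provirus is a limited model of infection.

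Nearly all mitochondrial proteins are made in the cytosol and must cross the mitochondrial membranes. The TOM complex forms the entry pore of the outer membrane, and from there proteins are passed to the SAM complex, which builds outer membrane barrels, to the small TIM chaperones of the intermembrane space, to the TIM22 complex for carrier proteins of the inner membrane, or to the TIM23 channel for proteins with a cleavable presequence. Behind the TIM23 channel an import motor around the mitochondrial Hsp70 pulls the chain inward, the processing peptidase removes the presequence, and the Hsp60-Hsp10 chaperonin folds the product. The Lonp1 and Clpp proteases degrade proteins of the matrix. Proximal tubule cells, the most abundant cells of the kidney cortex, are rich in mitochondria and depend on them for solute reabsorption.

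Library totals ran from 19877877 to 27000388 counts, and the TMM scaling factors from 0.901 to 1.22. Each value below is in CPM, the counts per 1000000 after that scaling, and each log2 fold change, with its standard error (SE), comes from edgeR's quasi-likelihood test on the counts of all 12 libraries, with p-values adjusted by Benjamini-Hochberg over all genes tested. A gene is called when the adjusted p is under 0.05. The labels give no batch, and nothing but mouse number separates the animals of a group. Both sexes were used in the study, matched between groups, yet all 12 libraries held more than 100 counts of Y-linked genes.

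The 36 members lay on 17 chromosomes of the mm10 genome (GENCODE M21, the annotation of Ensembl 96), 2 of them on the X, and 18 overlapped another protein-coding gene on either strand. Per kilobase of transcript, the WT level was highest for Hspd1 (359 CPM per kb), Hspa9 (330 CPM per kb), Hspe1 (177 CPM per kb) and Pmpcb (163 CPM per kb), which encode Hsp60, mitochondrial Hsp70, Hsp10 and the catalytic subunit of the processing peptidase. It was lowest for Tomm6os (0.586 CPM per kb), Timm10b (3.64 CPM per kb) and Tomm34 (6.68 CPM per kb). The matrix chaperones thus stood far above the pore and channel subunits, since Tomm40 and Timm23 were at 30.6 and 88.5 CPM per kb in WT mice.

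Promoter sequence was read for the 32 members present in the RefSeq promoter table (GRCm38.p6), as the 250 bases before each start site. These 4 are shown because 2 of them hold a heat shock element, the sequence bound by heat shock factors, and 2 hold the core bound by GABP (NRF-2), a regulator of many nuclear genes for mitochondrial proteins. Capitals mark the heat shock element in Hspe1 (chr1:55087898-55088147, plus strand) and Timm9 (chr12:71136676-71136925, minus strand), and the GABP core in Pmpcb (chr5:21736910-21737159, plus strand) and Timm23 (chr14:32201892-32202141, minus strand).
Hspe1: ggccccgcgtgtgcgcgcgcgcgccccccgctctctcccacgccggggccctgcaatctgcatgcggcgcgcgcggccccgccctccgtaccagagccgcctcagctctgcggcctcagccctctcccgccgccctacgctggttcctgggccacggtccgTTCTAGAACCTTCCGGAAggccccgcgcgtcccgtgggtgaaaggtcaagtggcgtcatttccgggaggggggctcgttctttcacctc
Timm9: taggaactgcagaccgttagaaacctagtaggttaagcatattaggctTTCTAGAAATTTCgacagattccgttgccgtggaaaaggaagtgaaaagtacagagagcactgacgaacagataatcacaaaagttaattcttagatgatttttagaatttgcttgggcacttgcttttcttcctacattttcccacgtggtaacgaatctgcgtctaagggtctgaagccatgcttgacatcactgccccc
Pmpcb: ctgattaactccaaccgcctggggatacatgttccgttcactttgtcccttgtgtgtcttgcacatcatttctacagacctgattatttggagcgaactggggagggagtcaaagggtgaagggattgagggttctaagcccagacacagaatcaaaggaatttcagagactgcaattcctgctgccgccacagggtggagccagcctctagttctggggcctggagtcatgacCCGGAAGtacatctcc
Timm23: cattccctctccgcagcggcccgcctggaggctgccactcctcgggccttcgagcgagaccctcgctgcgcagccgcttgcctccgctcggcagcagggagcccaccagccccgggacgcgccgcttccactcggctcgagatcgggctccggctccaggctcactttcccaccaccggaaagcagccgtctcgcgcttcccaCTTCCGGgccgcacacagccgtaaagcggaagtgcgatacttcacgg

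On either strand, the heat shock element, searched as the alternating units GAA, TTC and GAA with any 2 bases between neighbours, was found in 3 of these 32 members, Hspd1, Hspe1 and Timm9, and in 0.514% of all 27025 genes with a promoter in the table. Hspd1 and Hspe1 are read in opposite directions from start sites 216 bases apart, so their windows shared 215 bases and their matches lay in the same bases. RefSeq gives Hspd1 a further start site inside Hspe1. In Hspe1 the element was matched at 2 overlapping positions, which also overlap the GABP core there. The GABP core CCGGAAG was found in 14 of 32 members (Grpel1, Hspd1, Hspe1, Mtx1, Mtx2, Pmpca, Pmpcb, Timm10, Timm23, Timm29, Timm8b, Tomm22, Tomm34 and Tomm70a) and in 7.83% of all genes. The NRF-1 core, searched as GCGCA, any base and GCGC, was found in Hspd1, Pam16 and Tomm20 (4.23% of all genes), the ERR element AAGGTCA in Hspd1, Hspe1 and Timm8b (4.7% of all genes), and the CHOP:C/EBP core TGCAAT in 5 of 32 members (8.44% of all genes). A match is a run of letters and does not show that a factor binds there.

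To ask how the import system differs in diseased cortex, Tg26 mice were compared with WT mice. Of the 36 members, 21 fell, none rose, and 15 were not called, where 10.5% of all genes tested fell and 15.7% rose. With scaling by library size alone, only Hspa9 and Pmpcb were called lower and Tomm34 was called higher, while over all genes 274 were called lower and 5267 higher. The log2 fold change was negative for 34 members, with a median of -0.31 against -0.01 over all genes, and ran from -0.58 in Pmpcb to 0.39 in Tomm34. The 3 Tg26 mice were all below the 3 WT mice in 22 members, an order found in 18.1% of all genes. Each step behind the inner membrane channel had called members, and at the outer membrane pore 4 of 8 genes were called, as the heat map of the 12 mice shows.

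**Figure D1:**
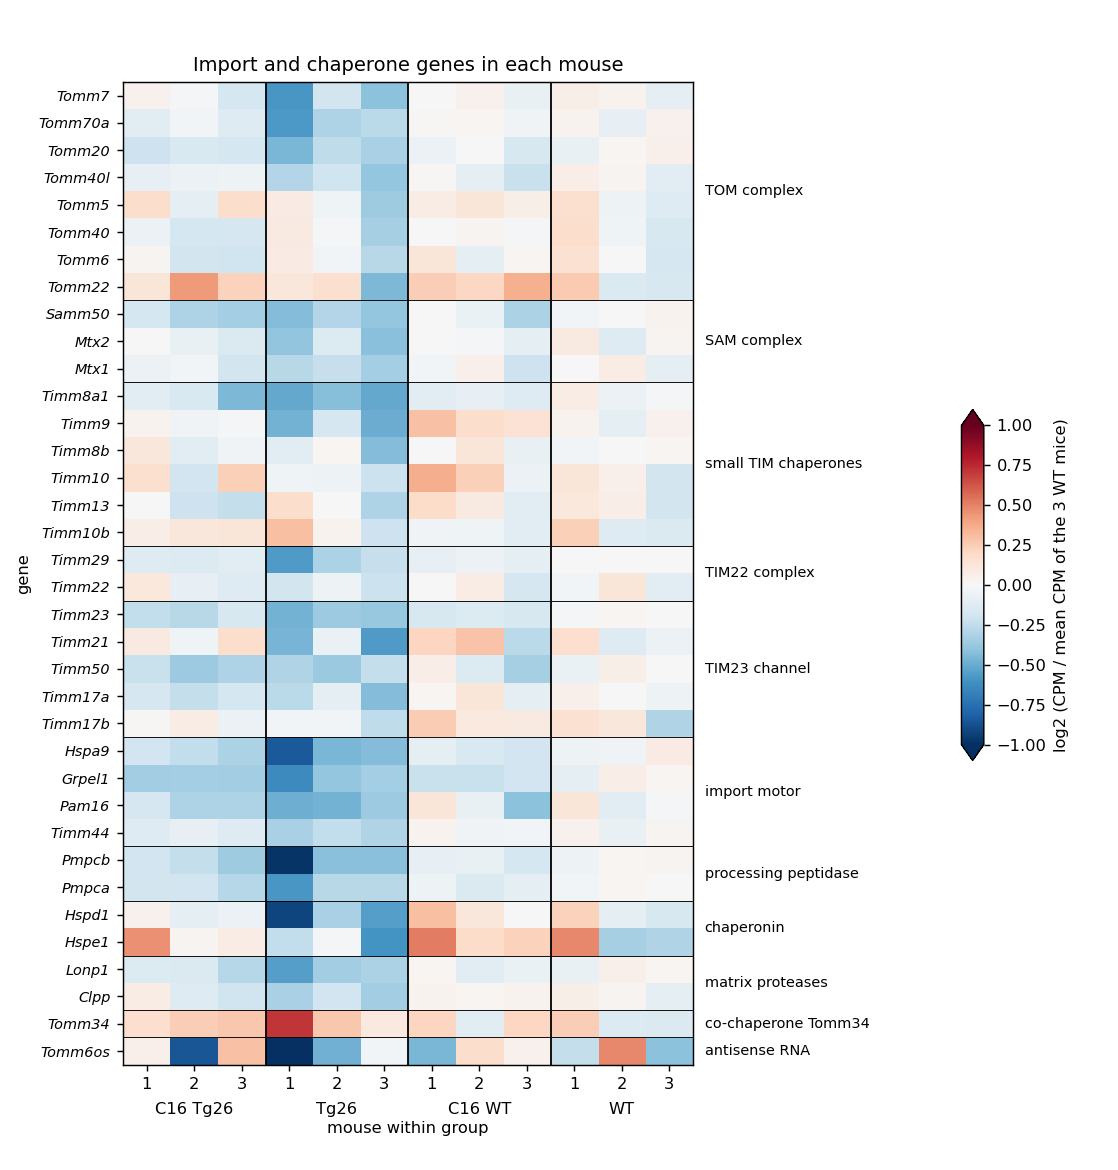
Level of each of the 36 members (rows, grouped by role) in each of the 12 mice (columns, 3 per group), as log2 of CPM over the mean CPM of the 3 WT mice, with blue below and red above that mean and colours saturated at 1 in either direction. The Tg26 columns are blue for most rows, deepest in mouse 1 for Tomm6os, Pmpcb, Hspd1 and Hspa9, while Tomm34 is red in all 3 Tg26 mice.

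All 4 members of the import motor fell, with a median log2 fold change of -0.44. Hspa9 (chr18:34937414-34954357), the mitochondrial Hsp70 that pulls and folds incoming chains, had 562, 734 and 745 CPM in Tg26 mice, against 970, 983 and 1064 CPM in WT mice. Every Tg26 mouse was thus below every WT mouse, and the log2 fold change was -0.56 (SE 0.12, adjusted p = 0.0059). Grpel1 (chr5:36464998-36474080), its nucleotide exchange factor, had 79.95, 95.1 and 98.5 CPM in Tg26 mice, against 117, 130 and 126 CPM in WT mice, also without overlap (log2 fold change -0.45, SE 0.09, adjusted p = 0.00465). Timm44, which tethers the motor to the channel, had 58.8, 61.8 and 59.6 CPM in Tg26 mice, against 75.6, 69.9 and 74.9 CPM in WT mice. That is a small drop (log2 fold change -0.29, adjusted p = 0.0123) with little spread among the Tg26 mice. Pam16, a regulator of the motor's J-protein, averaged 11.6 ± 0.55 CPM in Tg26 mice, against 15.7 ± 1.27 CPM in WT mice (SD, n = 3 each), and was called at an adjusted p of 0.0301 in edgeR, a call lost in 5 of the 12 fits that left out 1 mouse.

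Both subunits of the processing peptidase fell. Pmpcb (chr5:21737141-21757152), the catalytic subunit, had 134, 197 and 196 CPM in Tg26 mice, against 253, 267 and 268 CPM in WT mice, and its log2 fold change of -0.58 (SE 0.13, adjusted p = 0.00921) was the most negative of the 21 called. Mouse 1 of the Tg26 group stood well below its 2 companions, and even these were below all WT mice. Pmpca, the substrate-binding subunit, had 83.9, 104 and 104 CPM in Tg26 mice, against 124, 128 and 126 CPM in WT mice, which gave -0.37 on the log2 scale at an adjusted p of 0.0132. The ratio of Pmpcb to Pmpca counts was 1.59, 1.90 and 1.89 in Tg26 mice, against 2.05, 2.09 and 2.13 in WT mice, so the catalytic subunit was the lower of the pair relative to WT in each Tg26 mouse.

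Of the chaperonin pair 1 gene was called, and the difference between the 2 genes was not tested. Hspd1 (chr1:55077835-55088243), the Hsp60 ring, had 461, 696 and 594 CPM in Tg26 mice, against 1019, 812 and 778 CPM in WT mice. The groups did not overlap and Hspd1 was called lower (log2 fold change -0.58, SE 0.16, adjusted p = 0.021), a call lost when WT mouse 1 was left out (adjusted p = 0.0808). Hspe1 (chr1:55088132-55091307), the Hsp10 lid, had 115, 136 and 90.6 CPM in Tg26 mice, against 191, 108 and 111 CPM in WT mice. Here the groups overlapped, because WT mice 2 and 3 lay within the Tg26 range and mouse 1 far above it, and Hspe1 was not called (log2 fold change -0.26, SE 0.22, adjusted p = 0.413). Hspe1 counts per Hspd1 count were 0.250, 0.195 and 0.152 in Tg26 mice, against 0.187, 0.134 and 0.143 in WT mice, with overlapping ranges.

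Both matrix proteases fell. Lonp1, the AAA+ protease of the matrix, had 151, 174 and 178 CPM in Tg26 mice, against 211, 230 and 224 CPM in WT mice (difference -0.40 on the log2 scale, SE 0.09, adjusted p = 0.00957). Clpp, the proteolytic subunit of the ClpXP protease, had 39.2, 43.1 and 38.7 CPM in Tg26 mice, against 51.4, 50.1 and 46.1 CPM in WT mice. The gap between the Clpp groups was narrow (log2 fold change -0.29, adjusted p = 0.034), and its call was lost without WT mouse 1 or 2 or Tg26 mouse 1 or 3.

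Of the 5 subunits of the TIM23 channel, 2 fell. Timm23 (chr14:32180162-32201898), the pore-forming subunit, had 75.0, 80.6 and 79.6 CPM in Tg26 mice, against 103, 105 and 104 CPM in WT mice. Its 3 values in each group lay close together, and it had the smallest adjusted p of any member (log2 fold change -0.40, SE 0.07, adjusted p = 0.00242). Timm50, the receptor of the channel, had 45.0, 42.9 and 47.0 CPM in Tg26 mice, against 52.9, 57.8 and 55.6 CPM in WT mice, and was called by a small margin (log2 fold change -0.30, adjusted p = 0.0448), which was lost in 8 of the 12 fits that left out 1 mouse. The paralogous subunits Timm17a and Timm17b were not called. Timm17a averaged 66.6 ± 8.1 CPM in Tg26 mice, against 79.7 ± 2.79 CPM in WT mice (SD, n = 3 each; adjusted p = 0.0699 in edgeR, 0.0477 in DESeq2), and the X-linked Timm17b averaged 20.1 ± 1.75 CPM in Tg26 mice, against 21.5 ± 3.55 CPM in WT mice (SD, n = 3 each; adjusted p = 0.585 in edgeR). Timm21, which links the channel to the respiratory chain, gave a log2 fold change of -0.35 with a wide error (SE 0.16, adjusted p = 0.14).

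The TIM22 complex and the small TIM chaperones, which handle carrier proteins, were divided. Timm29, which stabilizes the TIM22 complex, fell (49.7 ± 5.85 CPM in Tg26 mice, against 64.1 ± 0.282 CPM in WT mice, SD, n = 3 each; adjusted p = 0.0109 in edgeR). Timm22, its pore, had 23.9, 26.3 and 23.4 CPM in Tg26 mice, against 26.7, 29.5 and 25.3 CPM in WT mice, with overlap and no call (log2 fold change -0.15, adjusted p = 0.305). Of 6 small TIM genes 2 fell: Timm8a1, whose human counterpart is mutated in deafness-dystonia syndrome, with a log2 fold change of -0.48 (SE 0.09, adjusted p = 0.00401), and Timm9, with -0.37 (SE 0.10, adjusted p = 0.0179), whose call was lost without WT mouse 1 or 3 or Tg26 mouse 1. Their assembly partners were not called. Timm13, the partner of Timm8a1, averaged 61.4 ± 10.2 CPM in Tg26 mice, against 62.6 ± 6.59 CPM in WT mice, and Timm10, the partner of Timm9, 12.3 ± 0.822 CPM in Tg26 mice, against 13.2 ± 1.42 CPM in WT mice (SD, n = 3 each; log2 fold changes -0.03 and -0.10). The ratio of Timm13 to Timm8a1 counts was 2.88, 2.41 and 2.06 in Tg26 mice, against 1.83, 1.95 and 1.60 in WT mice, which is higher in every Tg26 mouse. The ratio of Timm10 to Timm9 counts overlapped, at 0.532, 0.427 and 0.480 in Tg26 mice, against 0.417, 0.434 and 0.335 in WT mice. Of the paralogs, Timm8b gave a log2 fold change of -0.16 (adjusted p = 0.315) and Timm10b one of 0.06 (adjusted p = 0.791).

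Near-identical transcripts of other genes could have taken reads from 2 of these. The processed copy Gm9797 matches Timm8a1 and held 14.4% of the counts of the pair. With it added, Timm8a1 and Gm9797 summed to 29.4 ± 1.9 CPM in Tg26 mice, against 40.8 ± 1.56 CPM in WT mice (SD, n = 3 each). The overlapping Gm45799 held 22.04% of the counts it shared with Timm10b, and their sum was 15.6 ± 1.19 CPM in Tg26 mice, against 14.96 ± 1.53 CPM in WT mice. For the other 34 members, such copies held at most 1.96% of the counts.

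All 3 genes of the outer membrane SAM complex fell. Samm50, the barrel that inserts other barrels, had 138, 152 and 143 CPM in Tg26 mice, against 183, 186 and 191 CPM in WT mice (difference -0.37 on the log2 scale, SE 0.10, adjusted p = 0.0168). Its partners Mtx1 and Mtx2 fell by 0.28 and 0.31 on the log2 scale (adjusted p = 0.0357 and 0.0335). None of the 3 calls held in every fit that left out 1 mouse: those of Mtx1 and Mtx2 were each lost in 4 fits and that of Samm50 in 1, and without WT mouse 1 only Samm50, or without WT mouse 2 only Mtx2, was still called.

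Among the 8 TOM genes, 4 fell and 4 were not called. The receptors Tomm20 and Tomm70a were among those that fell. Tomm20, which recognizes presequences, had 129, 149 and 142 CPM in Tg26 mice, against 169, 181 and 184 CPM in WT mice (difference -0.35 on the log2 scale, SE 0.09, adjusted p = 0.0129). Tomm70a, the receptor for carrier precursors, had 87.6, 106 and 108 CPM in Tg26 mice, against 134, 123.5 and 134 CPM in WT mice (difference -0.38 on the log2 scale, SE 0.09, adjusted p = 0.012). The small subunit Tomm7 and the pore paralog Tomm40l also fell (log2 fold changes -0.38 and -0.29, adjusted p = 0.0223 and 0.0287), but both calls were lost without WT mouse 1, WT mouse 2 or Tg26 mouse 1, which left 2 of 8.

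The pore Tomm40 itself had 53.6, 49.8 and 40.0 CPM in Tg26 mice, against 57.1, 49.0 and 45.2 CPM in WT mice, which is overlapping ranges and no call (log2 fold change -0.08, SE 0.12, adjusted p = 0.661). Tomm22, the central receptor, had 33.8, 34.9 and 22.9 CPM in Tg26 mice, against 37.6, 28.3 and 28.0 CPM in WT mice (difference -0.03 on the log2 scale, SE 0.16, adjusted p = 0.899). The small subunits Tomm5 and Tomm6 gave -0.09 and -0.07. The ratio of Tomm40l to Tomm40 counts was 0.559, 0.644 and 0.702 in Tg26 mice, against 0.676, 0.765 and 0.759 in WT mice.

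Tomm34, a cytosolic co-chaperone of Hsp70 and Hsp90 rather than a subunit of the pore, gave the higher of the 2 positive values, the other being that of Timm10b. It had 25.3, 18.5 and 16.5 CPM in Tg26 mice, against 18.2, 13.97 and 13.9 CPM in WT mice, with overlap and no call (log2 fold change 0.39, SE 0.16, adjusted p = 0.104). Tomm6os, at 0.558 to 1.69 CPM in Tg26 mice, against 1.3 to 2.41 CPM in WT mice, was too low to place (log2 fold change -0.58, SE 0.43, adjusted p = 0.344).

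**Figure D2:**
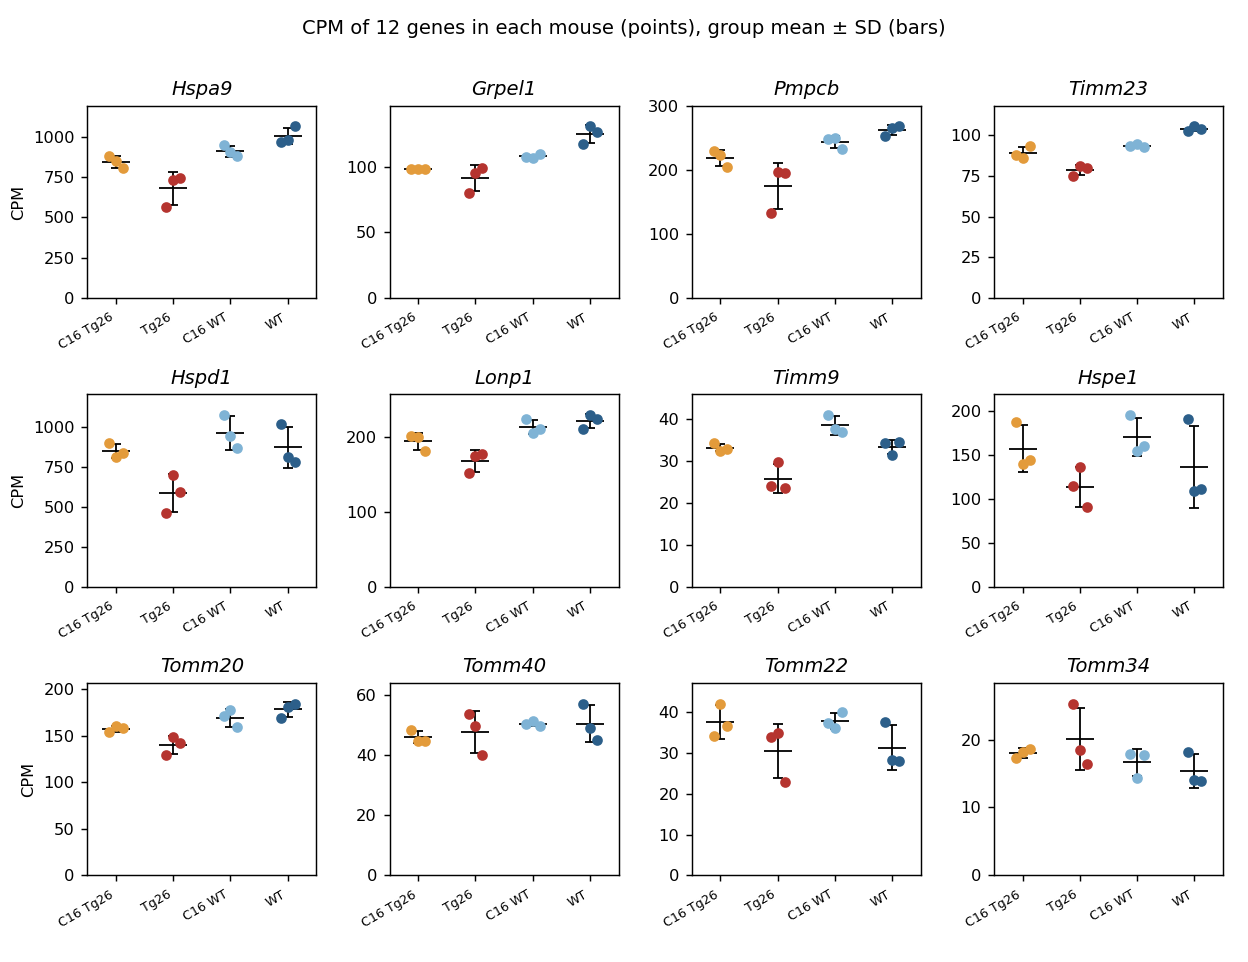
CPM of 12 of the genes in every mouse, with group mean and SD (n = 3), each axis starting at 0. In Hspa9, Grpel1, Pmpcb, Timm23, Hspd1, Lonp1, Timm9 and Tomm20 the Tg26 points lie below all WT points, while in Hspe1, Tomm40, Tomm22 and Tomm34 the Tg26 and WT points overlap.

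The number of calls depended on single mice and on the fit. Without WT mouse 1 it was 12, without Tg26 mouse 1 it was 13, and in a fit of Tg26 and WT mice alone it was 2 (Timm23 and Timm8a1). Over all genes, in either direction, the calls in these fits were 3068, 2663 and 2053, against 4219 in the main fit. Scaling by library size alone shifted the median of all genes to 0.29 and of the members to 0.00. A change of scaling moves all genes by nearly the same amount. The gap between members and all genes therefore could not change, and nothing is read from it.

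Markers of the proximal tubule, macrophages and fibroblasts moved in the same comparison. The 15 proximal tubule markers were all lower in Tg26 mice, 10 of them called, with a median log2 fold change of -0.71 and a summed level of 15792 to 30134 CPM in Tg26 mice, against 39962 to 44135 CPM in WT mice. All 11 macrophage markers rose, to a summed 699 to 1187 CPM in Tg26 mice, against 101 to 134 CPM in WT mice, and so did all 6 fibroblast markers (444 to 1886 CPM in Tg26 mice, 97.99 to 114 CPM in WT mice). No marker of these 3 lists was at 0 in all mice of a group. The other marker lists had few calls. The median log2 fold change was 0.01 for the thick ascending limb, with 0 of 4 called. It was -0.20 for the distal and collecting duct, with 1 of 7 called lower. For podocytes it was 0.16 and for endothelial cells 0.25, with 1 of 5 called higher in each. For lymphocytes it was 0.39, with 1 of 7 called higher. In bulk tissue, fewer proximal tubule cells and less RNA of these genes per cell cannot be told apart, and the part of cell composition in the lower levels was not tested.

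Beside each mouse's proximal tubule level, the members summed to 2854, 3496 and 3233 CPM in Tg26 mice 1, 2 and 3 and to 4481, 4204 and 4223 CPM in WT mice 1, 2 and 3. The Tg26 mouse with the lowest marker sum (mouse 1, 15792 CPM) also had the lowest member sum of all 12 mice. That sum is weighted to the most abundant members, such as Hspa9 and Hspd1, with WT means of 1006 and 870 CPM. Gene by gene, Tg26 mouse 1 was the lowest of the 12 mice for 15 members. Tg26 mouse 3, with the highest marker sum of its group, was the lowest for 18. The order was not the same throughout: Tg26 mouse 3 had a marker sum of 30134 CPM and a member sum of 3233 CPM, whereas C16 Tg26 mouse 3 had 29661 CPM of markers and 3780 CPM of members.

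**Figure D3:**
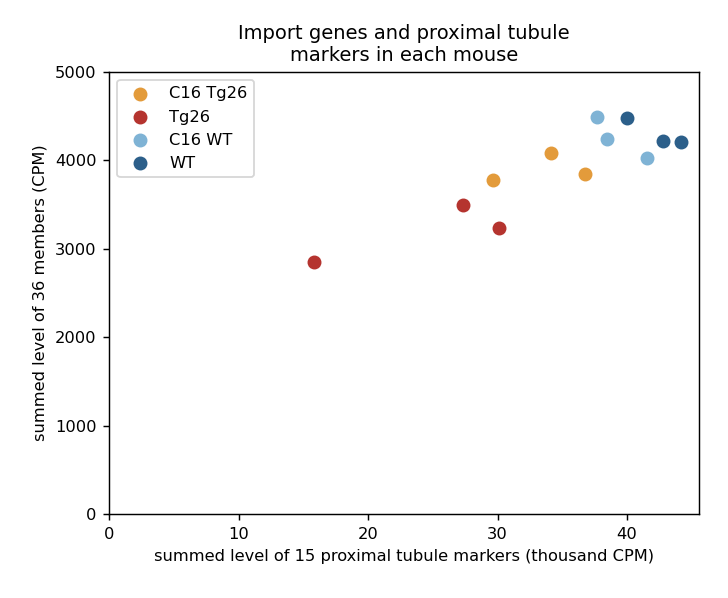
Summed CPM of the 36 members against summed CPM of 15 proximal tubule markers in each of the 12 mice, coloured by group. The 3 Tg26 mice are lowest on the vertical axis, at 2854 to 3496 CPM, and the C16 Tg26 mice, at 3780 to 4077 CPM, lie between them and the WT mice on that axis.

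Other mitochondrial genes were lower in Tg26 mice as well. Of 81 nuclear-encoded respiratory chain genes 56 fell (median log2 fold change -0.36), of 78 mitochondrial ribosomal protein genes 17 fell (median -0.23), and of the 13 protein-coding genes of the mitochondrial genome 10 fell (median -0.64). Among 14 further import and processing genes 4 fell and none rose, with a median of -0.25: the insertase Oxa1l, the intermediate peptidase Mipep, the motor J-protein Dnajc19 (45.7 CPM in Tg26 mice, against 66.6 CPM in WT mice, or -0.54 on the log2 scale, adjusted p = 0.0365) and Grpel2. Among 13 further mitochondrial chaperones and proteases 5 fell, with a median of -0.30, and the 3 with the smallest adjusted p were Afg3l2 (-0.43), an inner membrane protease, the Hsp70 co-chaperone Dnaja3 (-0.49) and the Hsp90 paralog Trap1 (-0.56).

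Chaperones outside mitochondria were counted as well. Of 21 cytosolic chaperone genes only the chaperonin subunit Cct6a fell (log2 fold change -0.42, adjusted p = 0.00717), and the small heat shock genes Hspb8 and Hspb1 rose (3.30 and 2.66, adjusted p = 0.000283 and 0.000486), with a median of -0.09. Of 15 chaperone genes of the endoplasmic reticulum edgeR called 0, DESeq2 2 and limma-voom 1, with 2 at an unadjusted p under 0.05, and their median was 0.13.

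To ask whether the PKR inhibitor altered these levels in diseased mice, C16 Tg26 mice were compared with Tg26 mice. The log2 fold change was positive for 32 of 36 members, with a median of 0.18 against -0.01 over all genes, but no member was called by edgeR, where 3.42% of all genes were called, 0.758% higher and 2.66% lower. At an unadjusted p under 0.05 there were 16 members, all higher (25.6% of all genes were under it, 10.7% higher), and the smallest adjusted p was 0.0585, in Timm9. DESeq2 called 5 members higher (Hspd1, Timm9, Tomm70a, Hspa9 and Tomm7, with adjusted p from 0.0153 to 0.0481), where it called 12.2% of all genes, 4.43% higher and 7.72% lower. The members' share was near that of all genes only when direction is set aside. All 5 were higher, and the share of all genes called higher was the smaller one given. Limma-voom called 0 members and 3.27% of all genes. All 3 C16 Tg26 mice were above all 3 Tg26 mice in 16 members, an order found in 12.4% of all genes. Without Tg26 mouse 2, which had the highest member sum of its group, edgeR called 5 members higher (Timm9, Timm21, Hspd1, Mtx2 and Tomm7), and 8.95% of all genes, 3.91% higher and 5.04% lower. The same 3 Tg26 mice enter this comparison and that with WT mice, so the 2 sets of values are not independent.

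**Figure D4:**
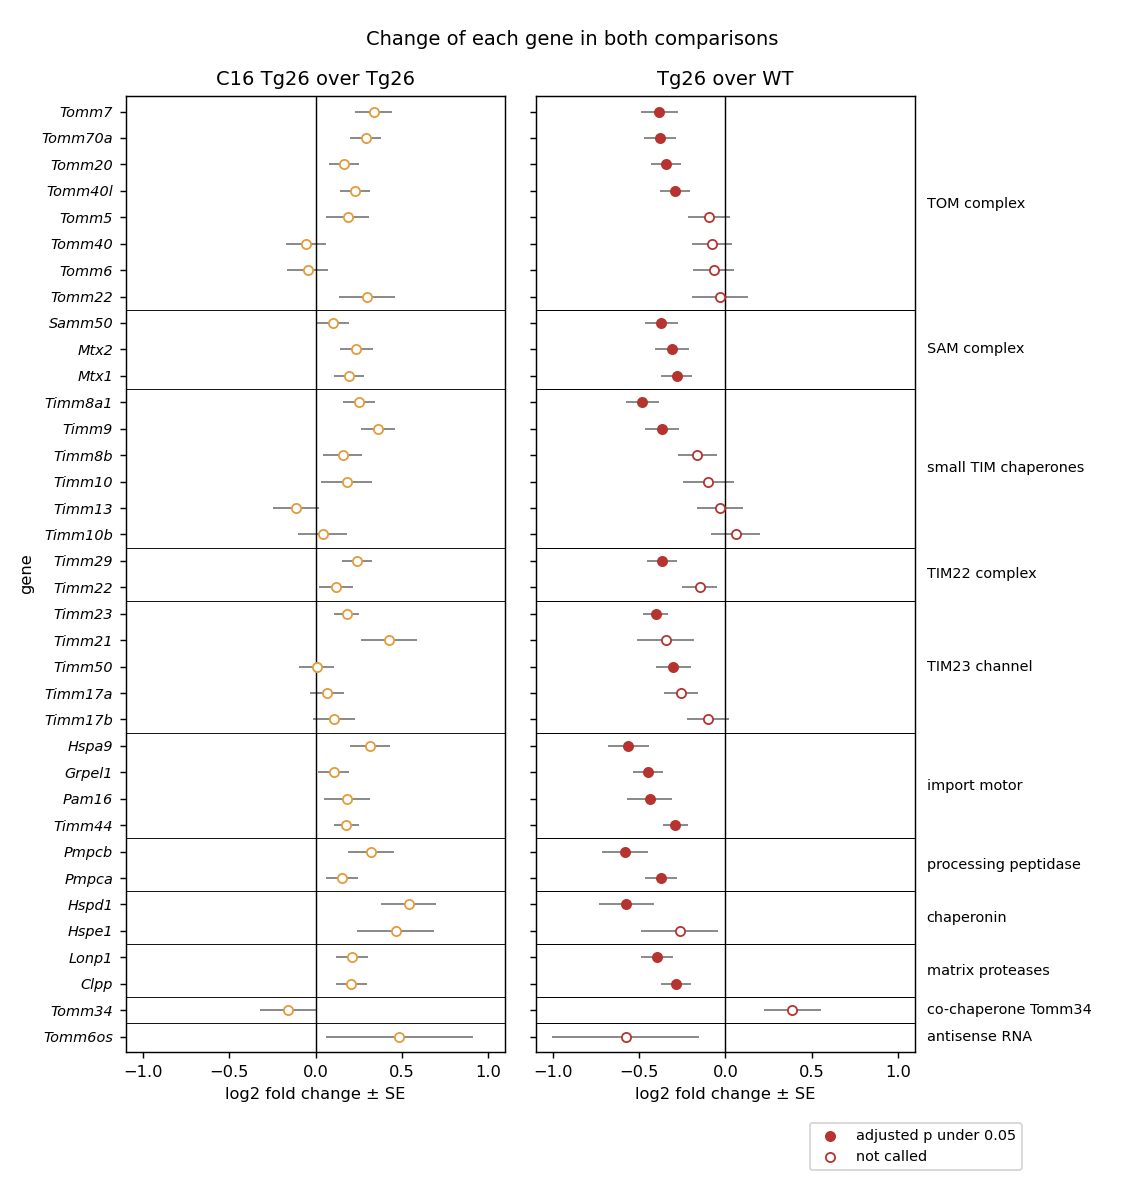
Log2 fold change with its SE for each of the 36 members, C16 Tg26 over Tg26 on the left and Tg26 over WT on the right, filled where the adjusted p was under 0.05. On the right 21 points are filled, all negative, and on the left none is filled and 32 are positive.

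The 2 chaperonin genes had the largest positive values among protein-coding members in this comparison. Hspd1 had 895, 811 and 837 CPM in C16 Tg26 mice, against 461, 696 and 594 CPM in Tg26 mice. The groups were well apart, with a log2 fold change of 0.54 (SE 0.16, adjusted p = 0.0719). Hspe1 had 188, 139 and 144 CPM in C16 Tg26 mice, against 115, 136 and 90.6 CPM in Tg26 mice, with Tg26 mouse 2 just below the lowest C16 Tg26 mouse (log2 fold change 0.46, SE 0.22, adjusted p = 0.214). Timm9, the third gene with a heat shock element, had 34.3, 32.5 and 33.0 CPM in C16 Tg26 mice, against 24.1, 29.8 and 23.6 CPM in Tg26 mice (log2 fold change 0.36, SE 0.10, adjusted p = 0.0585). A link between that element and these values was not tested.

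Of the import motor, Hspa9 had 882, 848 and 808 CPM in C16 Tg26 mice, against 562, 734 and 745 CPM in Tg26 mice (log2 fold change 0.31, SE 0.12, adjusted p = 0.125). Grpel1 was different: it had 97.9, 98.3 and 98.04 CPM in C16 Tg26 mice, against 79.95, 95.1 and 98.5 CPM in Tg26 mice, so that the highest Tg26 mouse was above all 3 (log2 fold change 0.11, SE 0.09, adjusted p = 0.499). Timm44 had 67.2, 69.6 and 67.2 CPM in C16 Tg26 mice, against 58.8, 61.8 and 59.6 CPM in Tg26 mice, without overlap (log2 fold change 0.18, adjusted p = 0.143).

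Pmpcb had 230, 223 and 205 CPM in C16 Tg26 mice, against 134, 197 and 196 CPM in Tg26 mice (log2 fold change 0.32, SE 0.13, adjusted p = 0.156). Timm23 had 87.6, 85.7 and 93.04 CPM in C16 Tg26 mice, against 75.0, 80.6 and 79.6 CPM in Tg26 mice (log2 fold change 0.18, SE 0.07, adjusted p = 0.143). Neither gene's groups overlapped. Timm50 showed no shift, with 47.6, 43.1 and 44.8 CPM in C16 Tg26 mice, against 45.0, 42.9 and 47.0 CPM in Tg26 mice (log2 fold change 0.01, SE 0.10).

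In the outer membrane, Tomm70a had 121, 128 and 119 CPM in C16 Tg26 mice, against 87.6, 106 and 108 CPM in Tg26 mice (log2 fold change 0.29, SE 0.09, adjusted p = 0.0851). Tomm20 averaged 157 ± 3.02 CPM in C16 Tg26 mice and 140 ± 9.81 CPM in Tg26 mice, and Samm50 155 ± 9.36 CPM in C16 Tg26 mice and 144 ± 7.12 CPM in Tg26 mice (SD, n = 3 each). Tomm40, Tomm6, Timm13 and Tomm34 were the 4 members with a negative value, from -0.05 in Tomm6 to -0.16 in Tomm34. For Tomm34 the C16 Tg26 mice had 17.2, 18.2 and 18.6 CPM, against 25.3, 18.5 and 16.5 CPM in Tg26 mice.

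Markers of the proximal tubule, macrophages and fibroblasts shifted in this comparison too, with 4 of 6 fibroblast markers called lower. No gene of the other marker lists was called. The 15 proximal tubule markers had a median log2 fold change of 0.45 (1 called higher), with 29661 to 36765 CPM in C16 Tg26 mice and 15792 to 30134 CPM in Tg26 mice. The macrophage markers summed to 282 to 573 CPM in C16 Tg26 mice and 699 to 1187 CPM in Tg26 mice, and their part in the values above was not tested. The respiratory chain genes had a median of 0.14, with 0 of 81 called by edgeR, 1 by DESeq2 and 12 at an unadjusted p under 0.05. The mitochondrial ribosomal protein genes had a median of 0.16, with 0 of 78 called by edgeR, 6 by DESeq2 and 22 at an unadjusted p under 0.05.

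Between C16 Tg26 and WT mice, 28 of 36 members had a negative log2 fold change, with a median of -0.09 against 0.01 over all genes, and none was called by edgeR (0.236% of all genes were called lower and 1.35% higher). In all, 6 members had an unadjusted p under 0.05, all lower, where 17.2% of all genes were under it, 6.88% lower: Grpel1, Timm23, Timm50, Samm50, Timm8a1 and Pmpca. This is close to the share over all genes only when direction is set aside. DESeq2 called 2 of them, Grpel1 and Timm23, and 5.43% of all genes (1.84% lower). Limma-voom called 5, all but Timm8a1, and 11.2% of all genes (4.71% lower). For both tools the members' share was near that of all genes only when direction is set aside. All members called were lower, and the share of all genes called lower was the smaller one given. Grpel1 had 97.9, 98.3 and 98.04 CPM in C16 Tg26 mice, against 117, 130 and 126 CPM in WT mice, without overlap (log2 fold change -0.34, SE 0.09, adjusted p = 0.082 in edgeR and 0.00591 in DESeq2). Timm50 had 47.6, 43.1 and 44.8 CPM in C16 Tg26 mice, against 52.9, 57.8 and 55.6 CPM in WT mice, which gave -0.30 on the log2 scale at an adjusted p of 0.158. Hspd1, by contrast, had overlapping ranges, with 895, 811 and 837 CPM in C16 Tg26 mice, against 1019, 812 and 778 CPM in WT mice (difference -0.04 on the log2 scale). The mean of C16 Tg26 mice lay between those of Tg26 and WT mice for 26 of 36 members, an order found in 52.9% of all genes. Among the 21 members that fell in Tg26 mice it was found in 21, and among all 1691 genes that fell in 88.3%. Choosing genes for low Tg26 values favours this order, and nothing is read from it.

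In healthy mice C16 left no called difference in the members. In C16 WT against WT mice, 22 members had a negative and 14 a positive value, with a median of -0.02 against 0.00 over all genes. EdgeR, DESeq2 and limma-voom each called 0 members. Over all genes edgeR called 0%, DESeq2 0.211% and limma-voom 0.267%, and 7.45% had an unadjusted p under 0.05 in edgeR. The 1 member with an unadjusted p under 0.05 was Grpel1, which had 107, 107 and 109 CPM in C16 WT mice, against 117, 130 and 126 CPM in WT mice (difference -0.21 on the log2 scale, SE 0.09, adjusted p = 0.653). In C16 Tg26 against C16 WT mice, 31 members had a negative value with a median of -0.11, edgeR called 0 (0.696% of all genes were called, 0.00621% lower and 0.69% higher), DESeq2 and limma-voom called 0, and none had an unadjusted p under 0.05 in edgeR.

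Whether the effect of C16 differed by genotype was tested directly as the interaction. It was positive for 30 of 36 members, with a median of 0.23 against 0.01 over all genes, and edgeR called 0 members and 0% of all genes. In all, 9 members had an unadjusted p under 0.05 in edgeR, all positive, where 12.7% of all genes were under it, 4.77% positive and 7.95% negative. The smallest adjusted p in edgeR was 0.285, in Timm23 (0.33, SE 0.10). Timm23 was the 1 member that DESeq2 called (adjusted p = 0.0446), where it called 1.09% of all genes, 0.179% positive and 0.908% negative. Limma-voom called 0 members and 0.0124% of all genes. The difference between genotypes was therefore not shown for any member by edgeR at 3 mice per group.

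Within groups, the members shared part of their order from mouse to mouse, and the same order was not counted over all genes. The highest mouse was C16 Tg26 mouse 1 for 20 of 36 members, Tg26 mouse 2 for 20, C16 WT mouse 1 for 18 and WT mouse 1 for 20. Tg26 mouse 3 was lowest of its group for 20 members and Tg26 mouse 1 for 15. WT mouse 1 was also lowest of its group for 11. The mouse order of the genes with a heat shock element is given here beside Hsph1, Dnaja1 and Hsp90aa1, cytosolic chaperones of the heat shock response. Whether that order is particular to these genes was not tested. These 3 chaperones were picked from the list of 21 after their values were seen, and the comparison is a description. In Tg26 against WT mice, 13 of the 21 had a negative log2 fold change, these 3 among them, and 8 a positive one. Among the positive were Hspa1a (1.21) and Hspa1b (1.34), neither called, and Hspb1 (2.66), which was called. In C16 Tg26 mice, mouse 1 was highest for Hspe1 (188 CPM), Hsph1 (216 CPM), Dnaja1 (447 CPM) and Hsp90aa1 (706 CPM). In Tg26 mice, Hspe1, Hsph1, Dnaja1 and Hsp90aa1 had the same order. Mouse 2 was highest (136 CPM of Hspe1, 215 CPM of Hsph1, 425 CPM of Dnaja1, 515 CPM of Hsp90aa1). Mouse 3 was lowest (90.6 CPM of Hspe1, 74.2 CPM of Hsph1, 194 CPM of Dnaja1, 348 CPM of Hsp90aa1).

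The C16 WT mice broke the pattern, since mouse 1 led in Hspe1 (195 CPM) and Hsp90aa1 (833 CPM) and mouse 2 in Hsph1 (262 CPM) and Dnaja1 (515 CPM). Mouse 1 of the WT group had 191 CPM of Hspe1 beside 108 and 111 CPM in mice 2 and 3. It also had 282 CPM of Hsph1 beside 88.8 and 74.2 CPM, and 590 CPM of Dnaja1 beside 291 and 275 CPM. For Hsp90aa1 it had 700 CPM beside 387 and 335 CPM. Hspd1 departed from the order of Hspe1 in Tg26 mouse 1, which had the lowest Hspd1 of all 12 mice (461 CPM) but not the lowest Hspe1. Timm9 did not follow it in WT mice, with 34.3, 31.4 and 34.5 CPM. What moved these genes together was not tested.

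**Figure D5:**
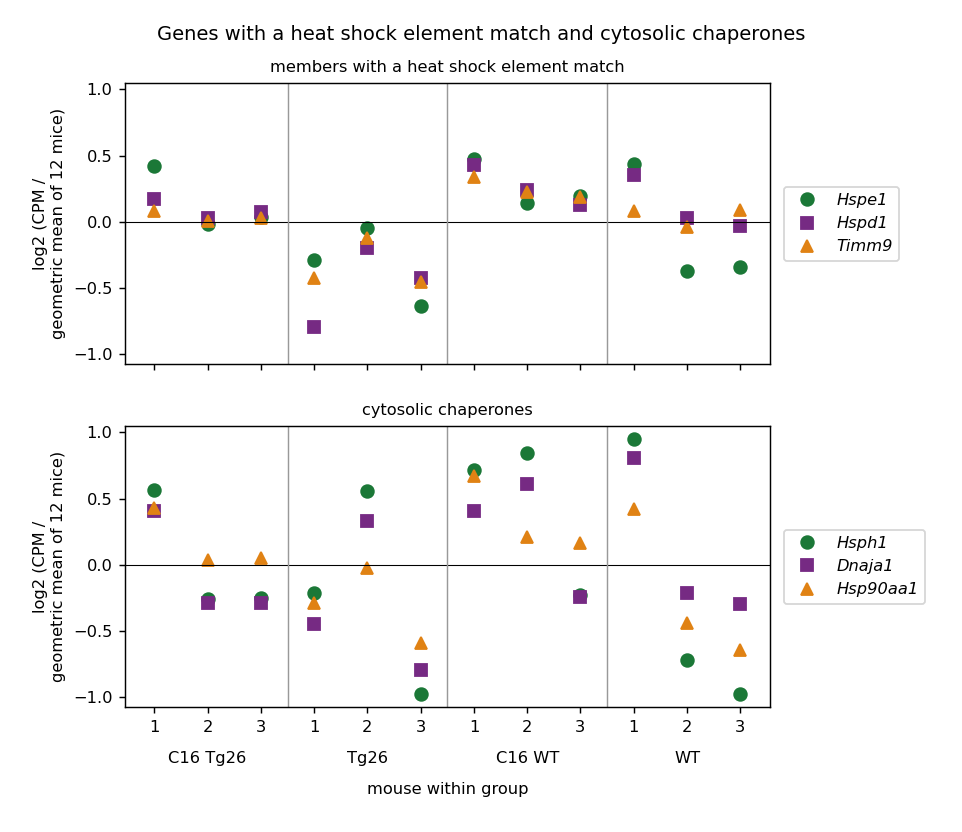
Log2 of CPM over the geometric mean of the 12 mice for Hspe1, Hspd1 and Timm9 (top) and for Hsph1, Dnaja1 and Hsp90aa1 (bottom), by mouse within group. For each gene C16 WT mouse 1 and WT mouse 1 lie above the line at 0 and Tg26 mouse 3 lies below it, and Tg26 mouse 1 is lowest for Hspd1.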

How the data were processed

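Poly(A) RNA of mouse kidney outer cortex was sequenced with a stranded kit (TruSeq Stranded mRNA), 3 mice per group. Per the labels and the study's methods, the authors used bcl2fastq 2.17, Cutadapt 1.18, STAR 2.7.0f and RSEM 1.3.1 with mm10 and Ensembl 96; the deposited values are RSEM expected counts, already whole numbers, per gene, not normalized. RSEM shares reads among similar transcripts, which can move counts between paralogs.

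All 55450 IDs matched GENCODE M21. Counts were fitted with edgeR 4.0.16 in R 4.3.3 (TMM, filterByExpr with a minimum of 10 counts, quasi-likelihood test, all 12 libraries, 4 groups), with Benjamini-Hochberg adjustment over 16094 genes. Alternatives were DESeq2 1.42.0, limma-voom 3.58.1 with quality weights, other scalings and filters, a replicate block, a Y-linked covariate, only the groups compared, and each mouse left out. No 2 libraries of a group agreed within sampling noise. The labels do not say more of the animals than their number; p-values measure the spread between these mice.

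The members and gene lists were chosen with earlier results of these data known. Values in every mouse are given for Tomm20, Tomm22, Tomm40, Tomm70a, Samm50, Timm22, Timm23, Timm44, Timm50, Hspa9, Grpel1, Pmpca, Pmpcb, Hspd1, Hspe1, Lonp1 and Clpp, and for the 3 largest called changes. Paralogs are named, and outside the members the rule was at most 3 genes per list by adjusted p. Beyond that rule, all 4 called genes of the further import and processing list were named. Hsph1, Dnaja1, Hsp90aa1, Hspa1a and Hspa1b were picked after their values were seen. Near-identical copies were transcripts of other genes matched by BLAST 2.17.0 at 95% identity over 80% of their length. Transcript length was that of the principal isoform.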

Additional observations from a re-analysis of the deposited data

How the results depend on the processing

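In Tg26 against WT mice, the 21 calls became 3 with scaling by library size only (2 lower, Hspa9 and Pmpcb, and Tomm34 higher). They became 6 with a Y-linked covariate and 2 with only the groups compared. With the first Tg26 and first WT libraries left out, a fit chosen after seeing the data, they became 9. Over all genes, in either direction, these fits called 5541, 1662, 2053 and 2137, against 4219 in the main fit. Leaving out 1 mouse at a time gave 12 to 21 calls, and 2475 to 4832 over all genes. The fit without Tg26 mouse 3 called 17 members lower and 1 higher, and in the other such fits all calls were lower. DESeq2 gave 22, limma-voom 19, upper-quartile scaling 15 and no low-count filter 14, with 4874, 4496, 3981 and 3869 over all genes. With library size only, 5 called members turned positive: Clpp 0.021, Timm44 0.018, Timm50 0.0080, Tomm40l 0.016 and Mtx1 0.027 on the log2 scale, while the median of all genes was 0.29. TMM without the mitochondrial genome, or without all mitochondrial lists, kept 21 (4223 and 4251 over all genes). In C16 Tg26 against Tg26 mice, DESeq2 called 5 (1917 over all genes) and leaving out a mouse gave 0 to 5 (0 to 1469 over all genes). In C16 Tg26 against WT mice, DESeq2 called 2 (873 over all genes) and limma-voom 5 (1796). There the fit without the first Tg26 and WT libraries called 1 (964), and leaving out a mouse gave 0 to 1 (28 to 842). For the interaction DESeq2 called 1 (158 over all genes).

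With the replicate number as a block, 20 members were called lower in Tg26 against WT mice, with 4051 calls over all genes. In the other comparisons 0 members were called, with 0 to 152 calls over all genes. The labels do not state that equal numbers pair the mice. Deviations of 18 same-numbered pairs correlated at -0.30 to 0.31, with a median of 0.07 and 7 over 0.1. Pairs with different numbers were not set beside them, so these values cannot decide whether the mice were paired. Of the 21 calls, 11 held in every fit that left out 1 mouse: Timm44, Timm23, Tomm70a, Hspa9, Pmpca, Pmpcb, Grpel1, Lonp1, Timm8a1, Timm29 and Tomm20. With 3 mice per group, members with wide spread, such as Hspe1, Tomm22 and Tomm6os, are the least well measured.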
